A study of Rattus norvegicus with 2 samples.

Results

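The 7 genes described here, of 25399 listed, belong to the regulated secretory pathway: Penk, Resp18, Chgb, Scg2, Scg3, Scg5 and Cpe. They were taken by symbol from a list drawn up with earlier results of these data in view, so their levels by cell group and genotype are given as descriptions, without a test. Cells store peptide hormones and neuropeptides in dense-core granules, which are released on a stimulus rather than continuously. Granins such as Chgb, Scg2 and Scg3 aggregate and sort cargo into the forming granule, Scg5 (the protein 7B2) is a chaperone of the convertase Pcsk2, and Cpe trims basic residues from peptides that convertases have cut. Penk encodes proenkephalin, the precursor of the opioid enkephalins, and Resp18 a protein of the endoplasmic reticulum and granules in neuroendocrine cells. The pathway is best known from neurons and endocrine cells, and astrocytes also carry granins and can release peptides.

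Droplet single-cell RNA-seq was performed on 1 library from wild type (WT) Sprague Dawley rats and 1 from Nuc1 rats, which carry a spontaneous insertion in Cryba1, the gene of βA3/A1-crystallin. Both libraries are labelled as optic nerve at postnatal day 7 and, by the series title, hold mixed cell cultures, while the series design text describes nerve that was digested. The number of animals behind each library is not given in the sources used here, the labels name no treatment, and 1 library per genotype allows no p-value. Neither library had a UMI (unique molecular identifier, here a count of molecules) of Cryba1, so that gene does not check the labels.

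Filters kept 1963 WT and 1782 Nuc1 cells, whose median depths were 14050 and 16577.5 UMIs, and these formed 11 clusters found without the 7 genes. Only 2 kept barcodes were shared by the libraries, and 5 WT and 11 Nuc1 barcodes were removed as doublets, so doublets may remain. The label fibroblast was checked against the collagen and proteoglycan genes Col1a1, Col3a1, Dcn and Lum, and 6 clusters high in them are called collagen-rich, with 1746 WT and 1265 Nuc1 cells. They are named by genes of fixed marker lists: Ccn3 and Rspo3, Actg2, Cldn11 and Thbd, Inmt and Cyp26b1, and cell-division genes. A small cluster had both Actg2 and division genes. Penk itself heads the leading genes of the Actg2 cluster, ahead of Actg2. The astrocyte-like cluster (108 WT and 345 Nuc1 cells) was led by Gfap, Fabp7, Hspb1 and Aqp4. The others were a motile-cilia cluster (14 and 110 cells), an oligodendrocyte-lineage-like cluster (52 and 10), a cluster led by Ttr and Gldn (22 and 30) and a macrophage-like cluster (21 and 22). Levels are UMIs of a gene per 1000000 UMIs of the same cells (CPM), and every interval is at 95% and covers counting error only.

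Promoter sequence is shown for 3 members with contrasting patterns in the astrocyte-like cells: Scg2 and Resp18, which tended to be found together, and Scg3, which was found evenly. Each window runs from 250 bases before to 50 bases after the gene start, 5′ to 3′ on the gene's strand, from RefSeq on build GRCr8. Capitals mark the cAMP response element TGACGTCA or its half-site TGACG.
Scg2, chr9:88256817-88257116, minus strand: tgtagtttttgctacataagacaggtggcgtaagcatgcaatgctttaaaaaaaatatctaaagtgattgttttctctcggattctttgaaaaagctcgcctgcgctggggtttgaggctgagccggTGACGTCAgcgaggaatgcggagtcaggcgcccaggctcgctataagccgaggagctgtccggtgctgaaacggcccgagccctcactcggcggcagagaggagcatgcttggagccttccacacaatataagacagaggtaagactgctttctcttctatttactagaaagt
Resp18, chr9:84220137-84220436, minus strand: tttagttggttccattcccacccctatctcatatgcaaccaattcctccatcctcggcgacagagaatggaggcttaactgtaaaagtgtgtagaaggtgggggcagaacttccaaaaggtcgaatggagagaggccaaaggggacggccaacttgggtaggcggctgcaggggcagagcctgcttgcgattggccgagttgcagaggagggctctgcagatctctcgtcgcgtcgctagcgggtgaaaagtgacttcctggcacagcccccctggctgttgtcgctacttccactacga
Scg3, chr8:85322435-85322734, minus strand: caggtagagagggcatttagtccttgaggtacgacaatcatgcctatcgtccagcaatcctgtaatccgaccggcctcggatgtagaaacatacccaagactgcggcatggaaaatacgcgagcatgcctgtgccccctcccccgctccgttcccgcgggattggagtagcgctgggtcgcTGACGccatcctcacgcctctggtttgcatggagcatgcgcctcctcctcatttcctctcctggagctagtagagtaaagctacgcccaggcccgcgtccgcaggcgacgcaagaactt
RefSeq windows were matched for 6 of the 7 genes, all but Penk. The full element TGACGTCA, searched on both strands, was in the Scg2 window at position -123 and in none of the other 5, against 1.83% of 33469 rat promoter windows. Its half-site TGACG, which overlaps it, was in the windows of Scg2, Scg3, Scg5 and Cpe, against 21.2% of all windows. The GC box GGGCGG was in those of Chgb, Scg5 and Cpe (33.1% of all windows) and TATAAA in none of the 6 (14.2%). These letters describe the windows only, and no factor binding was measured.

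The members divided into Penk, whose UMIs lay in collagen-rich cells, and Resp18, Scg3 and Chgb, whose UMIs lay mostly outside them. Of all Penk UMIs, 99.0% in WT and 92.7% in Nuc1 were in collagen-rich clusters. Of Resp18 UMIs, 75.1% in WT and 91.4% in Nuc1 were in astrocyte-like cells, and of Scg3 UMIs 83.4% and 90.7%. Scg2 and Cpe moved between these compartments from one library to the other: collagen-rich cells held 53.7% of Scg2 UMIs in WT but 5.57% in Nuc1, and 76.2% of Cpe UMIs in WT but 36.9% in Nuc1. Scg5 was divided among collagen-rich, astrocyte-like and motile-cilia cells in WT (36.9%, 32.7% and 22.9%), and 65.0% of it was in motile-cilia cells in Nuc1. These shares follow both the level per cell and the number of cells of each kind, and collagen-rich cells were 88.9% of the WT library and 71.0% of the Nuc1 library.

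**Figure D1:**
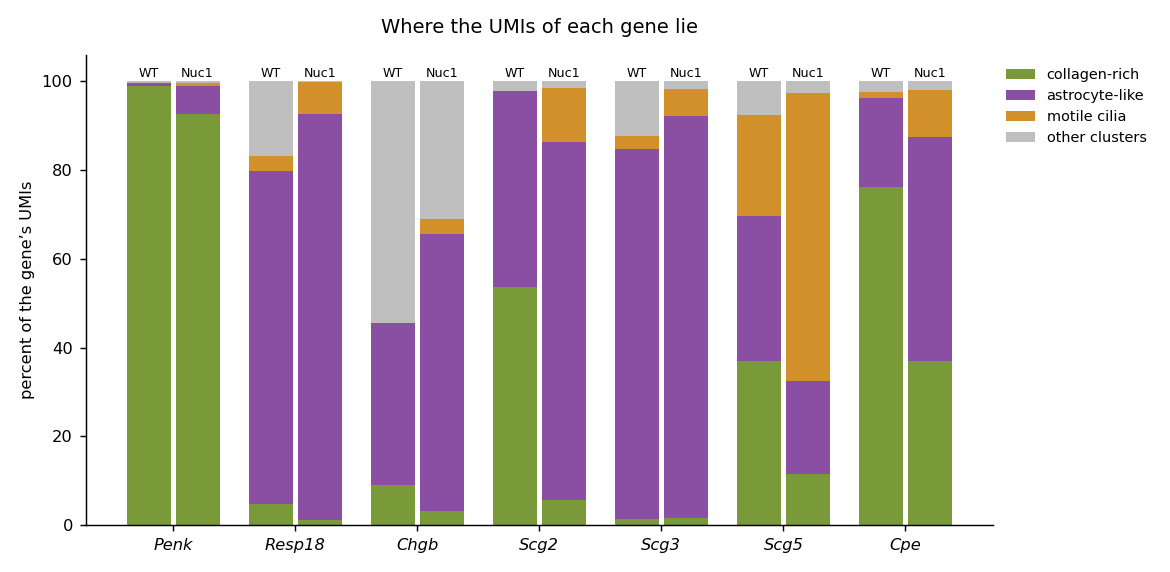
Stacked bars of the percent of each gene's UMIs (y axis) that lie in collagen-rich, astrocyte-like, motile-cilia and other clusters, for WT (left) and Nuc1 (right). Penk lies almost wholly in collagen-rich cells in both libraries, while for Scg2 the collagen-rich part is 53.7% in WT and 5.57% in Nuc1.

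Penk was the member that marked fibroblast types. Its level in the Actg2 cluster was 1346 CPM in WT (interval 1323 to 1369) and 1283 CPM in Nuc1 (1251 to 1317). The division-gene cluster had 1281 CPM in WT and 1063 CPM in Nuc1, and the small Actg2 and division cluster 1196 and 1027 CPM. Both had more of the summed markers Actg2 and Cnn1 than the Actg2 cluster, which had 939 CPM in WT and 333 CPM in Nuc1. The sums were 1267 and 539 CPM in the division-gene cluster and 1425 and 836 CPM in the small one. The Ccn3 and Rspo3 cluster had 667 CPM in WT and 378 CPM in Nuc1, and the Cldn11 and Thbd cluster 452 and 188 CPM. The Inmt and Cyp26b1 cluster was lowest of the 6, with 130 CPM in WT and 102 CPM in Nuc1. These clusters rest on the integration of the libraries: merged without it, the Ccn3 and Rspo3 type held 964 WT and 2 Nuc1 cells and the Cldn11 and Thbd type 9 WT and 712 Nuc1 cells. Within the integrated Ccn3 and Rspo3 cluster, the summed level of Ccn3 and Rspo3 was 3671 CPM in WT and 985 CPM in Nuc1, so the cells that share a cluster differed in the genes that name it. With integration both libraries gave the same order of the 6 clusters, in which only the division-gene cluster and the small Actg2 and division cluster had overlapping intervals.

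Within the integrated clusters the genotypes differed unevenly in Penk. As a log2 ratio, the Nuc1 level over that of WT was -1.27 in the Cldn11 and Thbd cluster (interval -1.39 to -1.15) and -0.82 in the Ccn3 and Rspo3 cluster (-0.89 to -0.75). It was -0.27 in the division-gene cluster and -0.07 in the Actg2 cluster (-0.11 to -0.02). So the level in Nuc1 was lower by 2.41-fold in one fibroblast type and by 1.05-fold in another, a difference between types that depends on which cells integration placed together and was not tested with 1 library per genotype. Over all collagen-rich cells the ratio was -0.80. The mix of this pool differed between the libraries. The Actg2-high clusters together had 606 WT and 238 Nuc1 cells, and the Inmt and Cyp26b1 cluster 54 and 367. The part of this cell mix in the pooled ratio was not tested. Without integration the pooled ratio was -0.79 on nearly the same cells (1752 WT and 1264 Nuc1), which says nothing of the single types. Detection in the single clusters showed the same order. After each cell was thinned to 5000 UMIs, 59.5% of WT cells and 20.9% of Nuc1 cells of the Cldn11 and Thbd cluster had a Penk UMI, and 65.2% and 37.1% of the Ccn3 and Rspo3 cluster. In the Actg2 cluster the shares were 81.5% and 71.6%. Unthinned, these shares were 77.1% and 37.4%, 78.6% and 52.3%, and 92.2% and 84.8%, in the same order. In cells that should lack Penk, the oligodendrocyte-lineage-like cells of WT, the thinned share was 6.12% (unthinned 17.3%), with a median of 12003 UMIs against 13495 UMIs in WT cells of the Cldn11 and Thbd cluster.

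In the Nuc1 cells of the Cldn11 and Thbd cluster a minority carried the Penk level. The highest 10% of Nuc1 cells held 82.6% of the Penk UMIs of the Cldn11 and Thbd cluster, where 1 cell of 214 had 110 of 748, and the highest 10% of WT cells held 47.0%. In the Actg2 cluster the highest 10% of cells held 41.4% in WT and 42.7% in Nuc1. The median cell of the Ccn3 and Rspo3 cluster had 307 CPM in WT and 48.7 CPM in Nuc1, and the median cell of the Cldn11 and Thbd cluster 206 CPM and 0 CPM.

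Penk in Nuc1 was near its WT level in a cluster where contractile genes were not. In the Actg2 cluster, Actg2 itself (smooth muscle gamma actin) was at 779 CPM in WT and 261 CPM in Nuc1, Acta2 (smooth muscle alpha actin) at 289 and 68.5 CPM, and Cnn1 (calponin) at 160 and 71.6 CPM. Against collagen, Penk came to 21.5 UMIs per 100 UMIs of Col1a1 in WT and 37.8 in Nuc1. Cells with an Actg2 UMI nevertheless had more Penk in both libraries. In the Ccn3 and Rspo3 cluster, thinned to 5000 UMIs, Penk was at 942 CPM in the 66 WT cells with an Actg2 UMI and 618 CPM in the 567 without. In Nuc1 it was at 1367 CPM in the 12 cells with one and 315 CPM in the 357 without. In the division-gene cluster the values were 1597 and 982 CPM in WT, and 2264 and 536 CPM in Nuc1. Over all collagen-rich cells, Penk without an Actg2 UMI was at 686 CPM in WT and 356 CPM in Nuc1, and with one at 1420 and 1598 CPM. These pools differ in their mix of clusters, and single clusters did not all follow them. In the Actg2 cluster, cells without an Actg2 UMI had 1113 CPM of Penk in WT and 1213 CPM in Nuc1. In the small Actg2 and division cluster, Penk was at 1667 and 945 CPM in cells with an Actg2 UMI and 800 and 776 CPM in cells without.

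**Figure D2:**
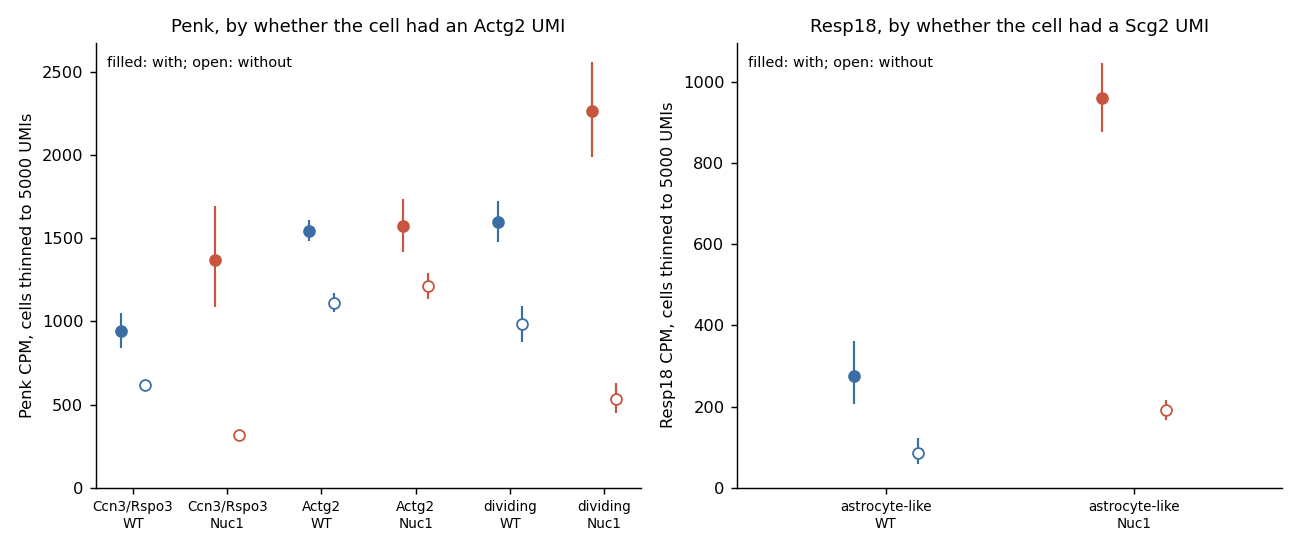
Left, Penk level (CPM, cells thinned to 5000 UMIs) in 3 collagen-rich clusters, split by whether a cell had an Actg2 UMI; right, Resp18 level in astrocyte-like cells, split by whether a cell had a Scg2 UMI. Filled points are cells with the UMI, open points those without, and bars are exact Poisson intervals; the filled point lies above the open one in every pair, for example at 2264 and 536 CPM in the Nuc1 division-gene cluster.

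Outside the collagen-rich clusters Penk was low but not absent. Astrocyte-like cells had 64.2 CPM in WT (181 UMIs) and 96.1 CPM in Nuc1 (844 UMIs), a log2 ratio of 0.58 (0.35 to 0.82) with the opposite sign to that of collagen-rich cells. In the astrocyte-like cells over 10% mitochondrial UMIs, which held 170 of the 181 WT UMIs, it was 0.22 with an interval that includes 0 (-0.05 to 0.49), and in the others 1.89 on 11 WT UMIs. Collagen markers were present in some of these cells. With the cells over 300 CPM of the 4 fibroblast markers left out, Penk was at 56.7 CPM in 91 WT cells and 92.2 CPM in 283 Nuc1 cells. Per 100 Col1a1 UMIs the astrocyte-like cluster had 25.9 Penk UMIs in WT and 60.4 in Nuc1, against 17.7 and 19.7 over collagen-rich cells. The highest single collagen-rich clusters had 26.6 in WT (division genes) and 39.6 in Nuc1 (the small Actg2 and division cluster). The other collagen-rich markers gave a different order. Per 100 Col3a1 UMIs the astrocyte-like cluster had 45.1 and 51.4, below the division-gene cluster at 58.0 and 62.2. Per 100 Dcn UMIs it had 96.3 and 155, also below that cluster at 121 and 192. Per 100 Lum UMIs it had 152 and 412, against 155 and 313. How much of the Penk RNA in astrocyte-like cells came from free RNA was not tested. Motile-cilia cells had 12.7 and 28.3 CPM, with 30 of the 68 Nuc1 UMIs in 1 cell. In oligodendrocyte-lineage-like cells 29 UMIs were seen in WT, 21 of them in 1 cell, and none in 10 Nuc1 cells, where 3 counts would be 28.1 CPM.

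Scg2, a granin cut to secretoneurin and other peptides, had the lowest Nuc1 level relative to WT of the members measured in collagen-rich cells. In the Ccn3 and Rspo3 cluster it was at 77.2 CPM in WT (646 UMIs) and 13.9 CPM in Nuc1 (77 UMIs). In the Cldn11 and Thbd cluster it was at 32.0 and 5.77 CPM, in the Actg2 cluster at 9.89 and 1.75 CPM, and in the division-gene cluster at 18.9 and 3.50 CPM. The Inmt and Cyp26b1 cluster had 8.46 and 2.28 CPM, on 6 and 13 UMIs. The small Actg2 and division cluster had 53.9 and 1.59 CPM, on 60 and 1 UMIs, a log2 ratio of -5.08 (-10.41 to -2.55). Thus the Nuc1 level was below the WT level in each of the 6 integrated collagen-rich clusters, and the ratios of the first 4 clusters named were close to each other. The log2 ratios there were -2.47 (-2.83 to -2.13), -2.47 (-3.17 to -1.84), -2.50 (-3.75 to -1.47) and -2.43 (-3.70 to -1.38) in the same order.

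The fibroblast Scg2 came from few cells. In the WT Ccn3 and Rspo3 cluster 17.2% of cells had a UMI (11.8% when thinned), against 6.74% (3.79%) in Nuc1, and the highest 10% of WT cells held 91.8% of the UMIs. Over all collagen-rich cells the thinned share was 6.88% in WT (interval 5.73% to 8.18%) and 2.15% in Nuc1 (1.42% to 3.11%). The level there was 36.03 and 5.72 CPM, a log2 ratio of -2.65. Merged without integration, where the types named above separate by library, the pooled ratio was -2.72. That pool holds nearly the same cells (1752 WT and 1264 Nuc1), so it says nothing of the single types. In this comparison 4 members reached the 100 UMIs set for a ratio, and 1 of the 4, Scg2, was at least 2-fold lower, as were 3.79% of 10342 genes. None of the 4 was at least 2-fold higher, against 4.43% of genes. Within WT cells of the Ccn3 and Rspo3 cluster, Scg2 was at 96.4 CPM in cells with a Penk UMI and 51.8 CPM in cells without. In Nuc1 cells of that cluster it was at 17.5 and 15.5 CPM, with overlapping intervals.

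**Figure D3:**
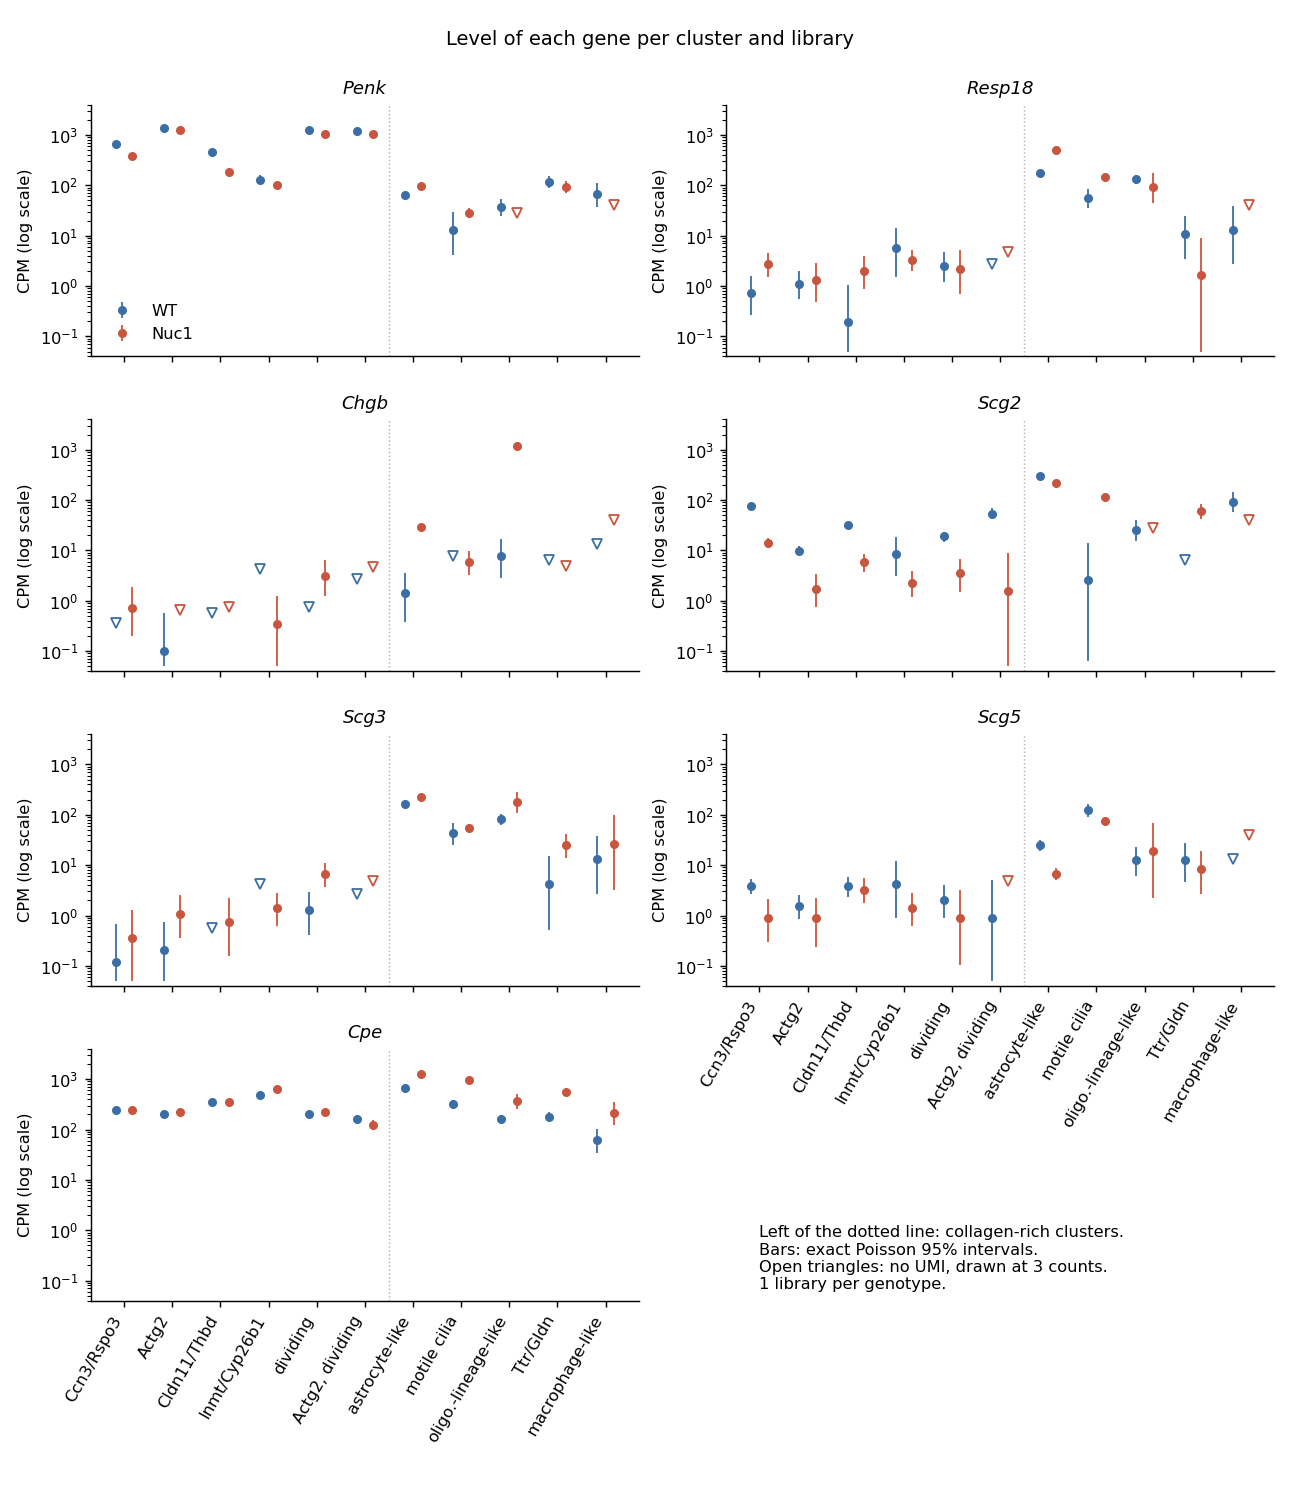
Level of each member (CPM, log axis) in the 11 clusters, in WT (blue) and Nuc1 (red), with exact Poisson intervals; open triangles mark clusters with no UMI and stand at 3 counts. Penk is highest left of the dotted line, in collagen-rich clusters, Resp18 and Scg3 are highest right of it, and Scg2 is lower in Nuc1 in all 6 collagen-rich clusters.

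In astrocyte-like cells the granule genes did not move as 1 group between the genotypes. Resp18 was at 178 CPM in WT (501 UMIs, interval 162 to 194) and 496 CPM in Nuc1 (4361 UMIs, 482 to 511), a log2 ratio of 1.48 (1.35 to 1.62). Cpe was at 667 CPM in WT and 1239 CPM in Nuc1, a log2 ratio of 0.89 (0.82 to 0.96). Scg3 differed less, with 167 and 225 CPM and a log2 ratio of 0.43 (0.29 to 0.58). Scg2 was lower in Nuc1, with 306 and 215 CPM and a log2 ratio of -0.51 (-0.63 to -0.39), and so was Scg5, with 24.8 and 6.71 CPM on 70 and 59 UMIs (-1.89, -2.41 to -1.37). Of the 7 members, all measured here, 2 were at least 2-fold higher in Nuc1 (Resp18 and Chgb), against 1.78% of 7574 genes, and 1 was at least 2-fold lower (Scg5), against 3.99%. The median log2 ratio over those genes was -0.11.

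The mitochondrial share of the cells moved with some of these values and not with others. Of the astrocyte-like cells, 17 of 108 in WT and 146 of 345 in Nuc1 had at most 10% mitochondrial UMIs. In those cells Scg2 was at 158 CPM in WT and 277 CPM in Nuc1, a log2 ratio of 0.81 (0.43 to 1.22), while in cells over 10% it was at 328 and 155 CPM, a ratio of -1.08 (-1.23 to -0.93). The direction of Scg2 between the genotypes therefore differed on the 2 sides of that split. Resp18 was higher in Nuc1 on both sides, with 188 and 718 CPM in the first kind of cell and 176 and 283 CPM in the second, and so was Cpe, with 343 and 1341 CPM, then 715 and 1141 CPM. Scg3 varied least, at 133, 222, 172 and 228 CPM in the same order. The part of the mitochondrial share in these differences was not tested.

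**Figure D4:**
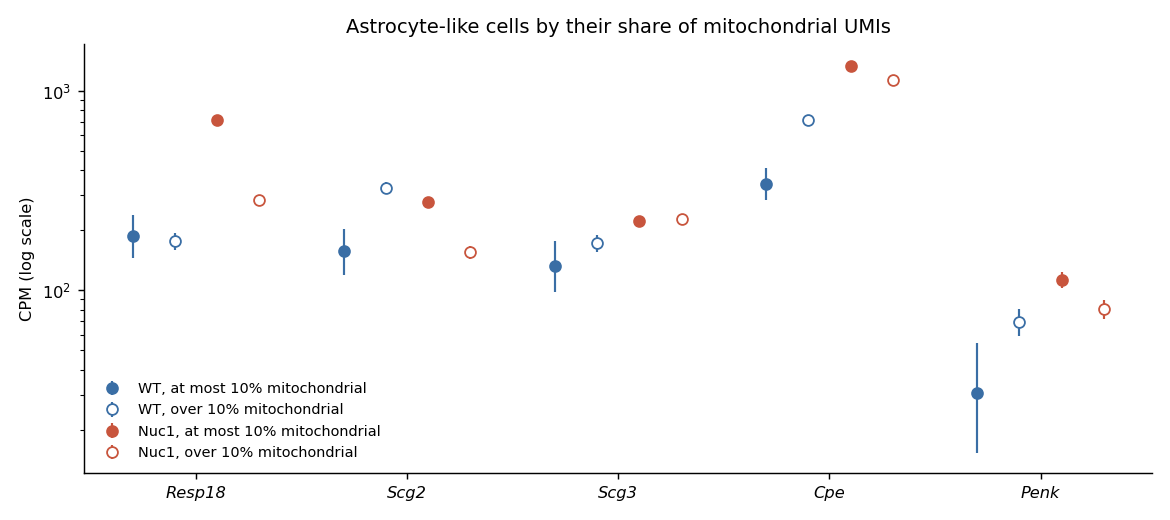
Level (CPM, log axis) of 5 members in astrocyte-like cells with at most 10% (filled) and over 10% (open) mitochondrial UMIs, WT in blue and Nuc1 in red, with exact Poisson intervals. For Scg2 the WT point lies below Nuc1 among filled points (158 and 277 CPM) and above it among open points (328 and 155 CPM), while Resp18 and Cpe are higher in Nuc1 in both.

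The members also differed in how evenly astrocyte-like cells held them. Cpe had a UMI in 98.1% of WT and 99.1% of Nuc1 cells, and Scg3 in 92.6% and 88.1%. When thinned, Cpe was found in 84.1% and 98.2% and Scg3 in 42.1% and 62.4% of cells. In collagen-rich cells, which should lack Scg3, the share was 0.229% in WT and 1.90% in Nuc1, thinned 0.0578% and 0.636%, with medians of 13713.5 and 15166 UMIs against 25874 and 24012 in astrocyte-like cells. The highest 10% of cells held 27.4% of Scg3 UMIs in WT and 29.1% in Nuc1, and 26.2% and 25.1% of Cpe UMIs. Resp18 was more uneven, with 53.5% and 70.6% of its UMIs in those cells, and Scg2 likewise with 60.6% and 71.8%. The median astrocyte-like cell had 86.1 CPM of Resp18 in WT and 110 CPM in Nuc1, a smaller gap than that of the summed levels, and at the 90th percentile the cells had 401 and 1035 CPM. The median Nuc1 cell had 15.9 CPM of Scg2, against 78.8 CPM in WT.

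Resp18 and Scg2 tended to be found in the same cells, though many cells had only 1 of them. At 5000 UMIs per cell, 78.1% of Nuc1 astrocyte-like cells with a Scg2 UMI also had a Resp18 UMI, against 39.6% of those without. In WT the shares were 54.1% and 34.3%. Conversely, 46.9% of Nuc1 cells with a Resp18 UMI had a Scg2 UMI, against 13.9% of those without, and in WT 45.5% and 27.0%. The Resp18 level in Nuc1 was 960 CPM in the 105 cells with a Scg2 UMI and 191 CPM in the 235 without, and in WT 276 CPM in 37 cells and 85.7 CPM in 70. Scg3 did not follow Scg2: it was found in 60% of Nuc1 cells with a Scg2 UMI and 63.4% of those without, and in 43.2% and 41.4% of WT cells. Penk did not follow Resp18 either, since Resp18 was found in 48.1% of Nuc1 cells with Penk and 52.5% without, and in 41.2% and 41.1% of WT cells. At that depth at least 3 of the 7 members were found in 43.0% (WT) and 55.9% (Nuc1) of the astrocyte-like cells, against 4.05% and 1.11% of collagen-rich cells. The shares lay between these in motile-cilia cells (14.3% of 14 and 18.5% of 108). They did so too in oligodendrocyte-lineage-like cells (14.3% of 49 and 16.7% of 6). No cell had all 7.

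Neuron and endocrine markers were checked in these cells. Of 12 neuron markers, 9 had a UMI in WT and 7 in Nuc1 astrocyte-like cells. Snap25, Nefl and Syp were at 0 in both libraries. The summed level of the list was 1165 CPM in WT and 1055 CPM in Nuc1, against 778 and 331 CPM in collagen-rich cells. Of 9 endocrine markers in the files, the pituitary hormone genes Prl, Gh1, Tshb and Fshb and the granin Chga were at 0. The list was not absent, and summed to 12.4 and 10.8 CPM, on 35 and 95 UMIs. Most of these were of Pomc, a pituitary hormone precursor, with 32 UMIs in WT (11.3 CPM) and 73 in Nuc1 (8.31 CPM). With the libraries together, Pomc was highest in motile-cilia cells. The 5 Nuc1 cells with most Resp18 had 159 to 279 UMIs of it and held all 9 astrocyte markers.

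Chgb, chromogranin B, was rare and unequal between the libraries. It had 11 UMIs in 9 cells of WT and 407 UMIs in 33 cells of Nuc1. In astrocyte-like cells 4 WT UMIs in 3 cells stood against 254 Nuc1 UMIs in 23 cells, of which 1 cell held 133. That cell also held 132 Resp18 UMIs, 29 of Scg2 and all 9 astrocyte markers. Without the top cell of each library the astrocyte-like sums were 2 and 121 UMIs, a log2 ratio of 4.28 with a wide interval (2.39 to 7.34). The oligodendrocyte-lineage-like cluster had 126 Nuc1 UMIs among 10 cells, 122 of them in 1 cell of 8101 UMIs in all, which had 5 UMIs of Resp18 and none of Scg2. At 5000 UMIs per cell the share of astrocyte-like cells with Chgb was 3.82% in Nuc1 (2.05% to 6.45%) and 0 of 107 in WT, and 76.9% of the 13 positive Nuc1 cells had Resp18. In collagen-rich cells 1 UMI was seen in WT and 13 in Nuc1, shares of 0.0573% and 0.395% of cells.

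Scg5 was highest in motile-cilia cells, with 125 CPM in WT (49 UMIs in 14 cells, 92.3 to 165) and 75.7 CPM in Nuc1 (182 UMIs in 110 cells, 65.1 to 87.5). A UMI was found in 78.6% and 62.7% of these cells, 50% and 25% when thinned. In collagen-rich cells the shares were 4.18% and 2.29%, thinned 1.45% and 1.11%, and the medians in motile-cilia cells were 26330 and 20032.5 UMIs. The log2 ratio in motile-cilia cells was -0.72 (-1.18 to -0.23), and at a clustering resolution of 0.2, where the cluster had 37 WT and 131 Nuc1 cells, it was 0.070. Pcsk2, the convertase that 7B2 chaperones, had 30 UMIs in all, 12 in WT and 18 in Nuc1.

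The same cells held other members unevenly. Cpe in motile-cilia cells was at 318 CPM in WT and 957 CPM in Nuc1, a log2 ratio of 1.59 (1.33 to 1.86). Scg3 was at 43.3 and 55.7 CPM, with intervals that overlap. Scg2 had 1 UMI in the 14 WT cells and 282 UMIs in 17 of the 110 Nuc1 cells (log2 ratio 5.53, 3.04 to 10.83), and 90 of the 282 were in 1 cell that also held 124 Resp18 UMIs and all 9 astrocyte markers (1500 UMIs). Resp18 was at 56.0 CPM in WT and 143 CPM in Nuc1. Of the 5 members measured here, 3 (Resp18, Scg2 and Cpe) were at least 2-fold higher in Nuc1, against 3.48% of 4106 genes, and none was at least 2-fold lower, against 2.24%. When cells were grouped by their own marker UMIs without clustering, the Resp18 ratio in motile-cilia cells turned from 1.35 to -0.72 and that of Scg2 was 1.46, so both rest on which cells are counted in this cluster.

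Cpe was the only member with a UMI in most cells of both compartments in both libraries, with 88.0% of WT and 91.9% of Nuc1 collagen-rich cells. Its level was close in the 2 libraries in several collagen-rich clusters, with 240 CPM in WT and 246 CPM in Nuc1 in the Ccn3 and Rspo3 cluster and 350 CPM in both in the Cldn11 and Thbd cluster. The log2 ratio was 0.04 (-0.06 to 0.14) in the former and 0.00 (-0.10 to 0.10) in the latter, and 0.14 (0.03 to 0.25) in the Actg2 cluster. In the Inmt and Cyp26b1 cluster, the highest of the 6, it was at 481 and 628 CPM (0.38, 0.22 to 0.55), while in the small Actg2 and division cluster it was at 162 and 123 CPM (-0.40, -0.80 to -0.01). The ratio over all collagen-rich cells was 0.51, above that of each of these clusters, and the Inmt and Cyp26b1 cluster had 54 WT and 367 Nuc1 cells. In the cluster led by Ttr and Gldn, Cpe was at 181 CPM in WT and 569 CPM in Nuc1 (1.65, 1.31 to 2.01), with 73 of the 345 Nuc1 UMIs in 1 cell. In macrophage-like cells Cpe had 14 UMIs in WT, 13 of them in 1 cell, and 16 in Nuc1, 12 of them in 1 cell.

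Resp18 and Scg3 were rare in collagen-rich cells. Resp18 had 32 UMIs in 27 of 1746 WT cells (1.55%, thinned 0.347%) and 53 UMIs in 51 of 1265 Nuc1 cells (4.03%, thinned 1.51%), no more than 4 in any cell. Gfap, the astrocyte filament gene, moved with it in these cells, from 6.58 CPM in WT to 29.6 CPM in Nuc1, and the part of free RNA in either was not tested. Both genes were also in oligodendrocyte-lineage-like cells of WT, Resp18 at 132 CPM in 37 of 52 cells and Scg3 at 81.4 CPM in 35 of 52, so they were not limited to astrocyte-like cells. Of the 11291 genes with at least 100 UMIs, 0.673% were highest in the astrocyte-like cluster by at least 2-fold over every other cluster of at least 20 cells in both libraries, and Scg3 was the 1 member among them.

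Summed over all kept cells, as a bulk measurement would give them, 4 members were at least 2-fold higher in Nuc1 (Resp18, Chgb, Scg3 and Cpe), against 8.1% of 11291 genes. Penk was at least 2-fold lower, against 4.55% of genes. Penk was at 823 CPM in WT and 385 CPM in Nuc1, a log2 ratio of -1.10, Resp18 at 19.7 and 137 CPM (2.80), Scg3 at 16.7 and 63.0 CPM (1.92) and Cpe at 277 and 621 CPM (1.16). Scg2 was at 57.8 and 67.3 CPM (0.22) and Scg5 at 6.32 and 8.07 CPM (0.35). In such sums fewer cells of a type and less RNA per cell cannot be told apart. When both libraries were given the same mix of clusters, the mean of theirs, the log2 ratio of Penk was -0.32, of Resp18 1.39, of Scg3 0.50 and of Cpe 0.54. That of Scg2 turned to -0.76 and that of Scg5 to -1.08. The direction of Scg2 over all cells was not stable, at -0.15 with cells thinned to 5000 UMIs and -0.26 by the mean of each cell's CPM, and in astrocyte-like cells it was opposite in those with at most 10% mitochondrial UMIs (0.81).

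**Figure D5:**
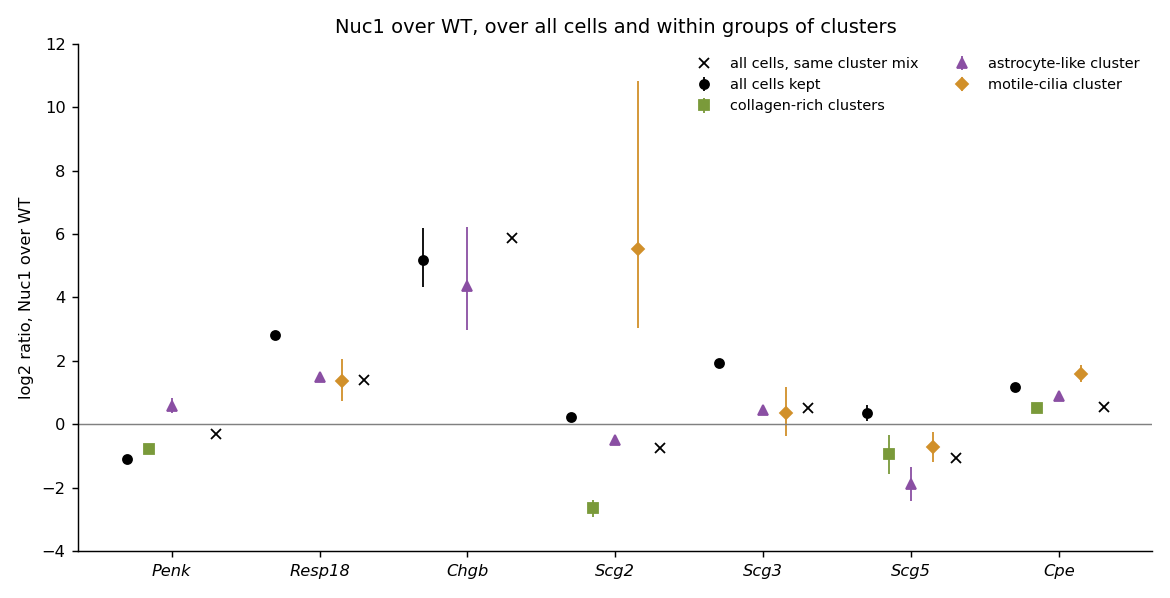
Log2 ratio of Nuc1 over WT (y axis) of each member over all kept cells, in collagen-rich, astrocyte-like and motile-cilia clusters, with exact conditional intervals where the group had at least 100 UMIs, and over all cells with the same cluster mix in both libraries (crosses, no interval). For Scg2 and Scg5 the cross lies below 0 (-0.76 and -1.08) and the circle of all cells above it (0.22 and 0.35).

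The other genes of the pathway were counted over 5 lists of 75 genes in all, members included. Among 8 granule proteins, 6 reached 100 UMIs and 3 were highest in astrocyte-like cells, all of them members. Vgf, a granin-like peptide precursor, was at 14.2 CPM in WT and 3.19 CPM in Nuc1 astrocyte-like cells. These rest on 40 and 28 UMIs, under the 100 set for a ratio. With the libraries together it was highest in oligodendrocyte-lineage-like cells, at 45.9 CPM. Chga, chromogranin A, had 8 UMIs in both libraries together, none in astrocyte-like cells. Among 10 convertases and trimming enzymes, Pcsk1 had 1 UMI in all. Cpe alone of the 8 measured was at least 2-fold higher over all cells, and Cpm and Pcsk5 were at least 2-fold lower, against 8.1% and 4.55% of all genes tested. Pam, which amidates peptides, was at 209 CPM in WT and 213 CPM in Nuc1 astrocyte-like cells, with a log2 ratio of 0.03 (-0.11 to 0.16).

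Of 18 genes of the granule membrane, sorting and release, 11 were measured, and Ptprn and Ptprn2, the granule membrane proteins IA-2 and phogrin, were highest in astrocyte-like cells. Ptprn was at 274 CPM in WT and 361 CPM in Nuc1 there (0.40, 0.28 to 0.51), and Ptprn2 at 47.9 and 49.6 CPM (0.05, -0.23 to 0.34). Rab27a and Rab27b, small GTPases of granule docking, were at least 2-fold lower in Nuc1 collagen-rich cells (3.79% of all genes there), at 7.37 and 2.82 CPM, and at 16.6 and 7.05 CPM. Of 30 peptide precursors, 8 reached 100 UMIs, and the opioid precursor Pdyn, with Vip, Oxt and Grp, had no UMI. Edn3 (endothelin 3) and Sst (somatostatin) were at least 2-fold higher in Nuc1 collagen-rich cells (4.43% of all genes there), at 0.480 and 5.15 CPM, and at 9.33 and 26.5 CPM. Both were highest in the Inmt and Cyp26b1 cluster, at 18.0 and 43.4 CPM with the libraries together. That cluster had 54 WT and 367 Nuc1 cells, and the part of this cell mix was not tested. Edn3 had 15 WT UMIs over all cells. Of the classical mu and delta opioid receptors, Oprm1 had no UMI and Oprd1 had 5 in all. Oprk1, the kappa opioid receptor, had 38 UMIs in WT and 4 in Nuc1. Ogfr, the opioid growth factor receptor, was at 77.6 CPM in WT and 78.8 CPM in Nuc1 over all cells. Of the 4 measured genes of that list, Anpep, an aminopeptidase that cuts enkephalins, was at 31.8 CPM in WT and 70.7 CPM in Nuc1 collagen-rich cells, and Mme (neprilysin) at 23.6 and 19.5 CPM. Median log2 ratios of the 5 lists in astrocyte-like cells were 0.43, -0.03, 0.13, -0.36 and -0.04, in the order given here. They rest on 5, 6, 6, 5 and 2 measured genes, and the median over all 7574 genes there was -0.11. The 5 measured granule proteins are all members, so the first median is the ratio of Scg3 and adds no other gene.

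Genes with the most similar pattern were sought over 20 points, each a cluster of at least 20 cells in 1 library, by Pearson's r of log2(CPM + 10) among 8374 genes. The points of 1 cluster share their cell type and those of 1 library its preparation, so r is a description. For Penk they were Capn2 (r = 0.93), Tnfaip8l3 (0.92) and Pabpc4 (0.91). For Scg3 they were Gnao1 (0.98) and Ptprz1 (0.96), and for Resp18 Meis2 (0.95), Abhd3 (0.95) and Egln3 (0.94). For Scg5 they were Ccdc39 and Cfap36 (0.92 and 0.91), for Scg2 Emx2, Srebf1 and Slc16a1 (0.82, 0.82 and 0.81), for Chgb Dapl1, Lgi4 and Tmem229a (0.83, 0.80 and 0.78), and for Cpe Ppdpf, S100a16 and Rab11b (0.89, 0.88 and 0.88). Among the members themselves, Resp18 and Scg3 had the highest r (0.91), and Penk had a negative r with each of the other 6, from -0.63 with Scg3 to -0.23 with Scg2.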

How the data were processed

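Libraries were prepared by the authors with a droplet 3′ kit and processed, per the submitters' notes, with Cell Ranger 3.1.0 and STAR 2.7; the genome build is not given in the sources used here. The deposited matrices hold raw UMI counts per gene and barcode. Barcodes under 500 genes or over 20% mitochondrial UMIs were dropped, Scrublet in scanpy 1.11.5 was run at an expected doublet rate of 2%, and cells were clustered after anchor integration in Seurat 5.3.0 (R 4.3.3; 2000 variable genes less the 7 members, 30 components, resolution 0.5). A cluster was called collagen-rich above 1/3 of the highest summed collagen marker level, a limit set after seeing the values. Counts were summed per cluster and library. Intervals are exact Poisson for CPM, Clopper-Pearson for shares and exact conditional for ratios. A count of 0 is marked at a floor of 3 counts, which is not the upper end of its interval. Ratios were counted for genes with at least 100 UMIs. Their intervals were tried on simulated Poisson sums, which hold no variation between cells or libraries, so that check covers counting error only. Leading genes of clusters were ranked by fold after adding 20 CPM. Named genes are the members, 3 genes most like each (for Scg3 and Scg5, 1 of the 3 is not reported here), and the listed pathway genes; Col1a1, Gfap and the contractile genes were chosen after their values were seen. Members and lists were chosen with earlier results of these data known.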

Additional observations from a re-analysis of the deposited data

Results flagged for a closer look

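Among the collagen-rich, astrocyte-like and motile-cilia cells, 2 members had ratios of Nuc1 over WT of opposite sign with intervals on either side of 0. With 1 library per genotype these differences were not tested. For Penk, the log2 ratio in astrocyte-like cells exceeded that in collagen-rich cells by 1.38, from 0.58 and -0.80. The former was 0.22 to 1.89 over the alternatives tried. Its lowest value, in cells over 10% mitochondrial UMIs, had an interval that includes 0 (-0.05 to 0.49). The latter pools clusters whose shares of cells differed between the libraries. Within them the ratio ran from -1.27 (Cldn11 and Thbd) to -0.07 (Actg2), and the part of the cell mix was not tested. For Scg2, the ratio in motile-cilia cells exceeded that in astrocyte-like cells by 6.04 and that in collagen-rich cells by 8.18, with 1 WT UMI behind the motile-cilia value.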

How the results depend on the processing

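No paired analysis was possible because WT and Nuc1 are a single library each, which also leaves no replicate to drop. Of 309 recomputed log2 ratios of 23 results (each member over all cells and within 3 groups), 247 stayed inside the interval first obtained, 53 moved outside it and 9 turned sign. Over all cells, with at most 10% mitochondrial UMIs the log2 ratio was -0.99 for Penk, 4.82 for Resp18, 1.13 for Scg2, 4.06 for Scg3 and 1.28 for Cpe. That setting kept 1244 WT and 1110 Nuc1 cells and 37 WT astrocyte-like cells, and Chgb had no WT UMI left. With cells thinned to 5000 UMIs it was -1.23 for Penk, 2.32 for Scg3 and -0.15 for Scg2. By the mean of each cell's CPM it was -1.20 for Penk, 2.58 for Resp18, 4.23 for Chgb, -0.26 for Scg2, 0.68 for Scg5 and 1.12 for Cpe. Without cells high in fibroblast markers outside the collagen-rich clusters it was -1.05 for Penk and 1.11 for Cpe. With the same cluster mix in both libraries it was -0.32 for Penk, 1.39 for Resp18, -0.76 for Scg2, 0.50 for Scg3, -1.08 for Scg5 and 0.54 for Cpe. These last 2 settings, the split by mitochondrial share and leaving out top cells were chosen after seeing the data. Within groups, Scg2 in astrocyte-like cells turned to 1.94 with at most 10% mitochondrial UMIs and to 0.81 in such cells of the same cluster. Resp18 in motile-cilia cells turned to -0.65 with the members among the clustering genes and -0.72 without clustering, and Scg5 there to 0.070 at resolution 0.2. The cause was not tested. At most 10% mitochondrial UMIs left no motile-cilia cluster and no Cldn11 and Thbd cluster. Resolution 0.2 left no separate Actg2 cluster and no Cldn11 and Thbd cluster. Ratios of the single collagen-rich clusters are not among the 23 results, and their dependence on the mitochondrial limit and the resolution was not tested. The 14 WT motile-cilia cells limit every ratio of that cluster.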
